A study of Mus musculus with 6 samples.

Results

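A set of 8 mouse genes of peripheral glia and myelin, Mbp, Pmp22, Prx, Ncmap, Gap43, Fabp7, Ngfr and Omg, was followed in RNA of primary mouse melanocytes. They were chosen by symbol, as genes of myelin and of the Schwann cell precursor, a cell of the same neural crest origin as the melanocyte, by a rule that uses no measured value, although results of these data were known when they were proposed. They make up 8 of the 36528 gene models counted. The study sequenced polyadenylated RNA of skin melanocytes in 6 libraries, 3 with the genotype label BAP1 KO (BAP1 knockout) and 3 with the label WT (BAP1 wild type). BAP1 is a nuclear enzyme that removes ubiquitin from histones. No strain, age, treatment, allele or method of knockout is given in the labels, and no label says whether the 3 libraries of a genotype came from separate cultures or animals. The p-values below therefore measure the spread between these libraries, which may be technical.

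Libraries held 33987690 to 43773769 reads aligned uniquely to gene models. Reads of Bap1, the targeted gene, did not fall under the knockout label: its level was 74.5 ± 2.52 CPM (counts scaled to library size with TMM factors, the trimmed-mean scaling of edgeR) in the BAP1 KO-labelled libraries and 55.7 ± 0.0968 CPM in the WT-labelled ones (SD, n = 3 each), a log2 difference of 0.42 (SE 0.042, edgeR adjusted p = 3.89e-06). Counts pool all exons of the gene. Every direction below therefore rests on the labels alone. Melanocyte markers were read in all libraries, with 10 genes summing to 62390 to 63250.0 CPM with the BAP1 KO label and 6417 to 6499 CPM with the WT label, led by Tyrp1 and Dct. Mitf, the lineage transcription factor, stood at 262 ± 3.93 and 52.3 ± 5.66 CPM. The other marker lists also differed. The 15 keratinocyte markers, led by Krt14 and Krt17, summed to 314 to 331 CPM with the BAP1 KO label and 6843 to 7081 CPM with the WT label. The 12 fibroblast markers, led by Postn and Col1a1, summed to 51.2 to 53.7 and 496 to 519 CPM. The 8 macrophage markers, led by Lyz2 and Cd68, summed to 222 to 230.3 and 45.6 to 51.0 CPM, and the 6 endothelial markers, led by Kdr and Pecam1, to 12.0 to 13.1 and 9.32 to 9.99 CPM. Such sums follow their leading genes. Of the 8 macrophage markers 6 were higher and 2 lower with the BAP1 KO label, with log2 differences from -5.32 to 2.97 (median 0.70). Of 11 tested fibroblast markers 10 were lower and 1 higher, and of 2 tested endothelial markers 1 was higher and 1 lower. With calls made as described below, 39.4% of all tested genes were higher and 42.1% lower, so a call alone does not mark these lists out. In bulk RNA a change in the number of cells of a type and a change in RNA per cell cannot be told apart.

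Schwann cells and melanocytes both arise from the neural crest, and part of the skin's melanocytes descend from Schwann cell precursors that travel along nerves. A Schwann cell precursor expresses lipid carriers, growth-associated proteins and the neurotrophin receptor p75. As it matures to a myelinating cell it wraps an axon and lays down compact myelin, held together by adhesive membrane proteins, and builds around it a scaffold that ties the outer membrane to the surrounding matrix.

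Promoter sequences are shown for 4 genes, a pair that was higher and a pair that was lower with the BAP1 KO label, so that the letters upstream of their starts can be set beside their levels. RefSeq (build GRCm38.p6) had promoter entries for 5 of the 8 genes, with 9 start sites in all. The sequences cover up to 250 bases before the start, on the gene's own strand and written 5′ to 3′, cut before the first base that RefSeq or GENCODE places in the gene. Capitals mark letters that match a motif. The motifs searched, on both strands, were CACGTG and CATGTG (the E-box letters that MITF can bind), ACAAAG and AACAAT (SOX factors), GNGTGGGNG (EGR factors) and GGAATG (TEAD factors).
Pmp22, first start, chr11:63128732-63128981, plus strand: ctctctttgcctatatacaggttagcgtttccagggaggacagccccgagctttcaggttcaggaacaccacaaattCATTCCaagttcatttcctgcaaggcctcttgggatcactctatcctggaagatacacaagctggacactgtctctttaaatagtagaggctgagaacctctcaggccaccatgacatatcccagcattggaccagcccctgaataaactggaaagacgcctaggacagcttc
Prx, chr7:27499074-27499304, plus strand: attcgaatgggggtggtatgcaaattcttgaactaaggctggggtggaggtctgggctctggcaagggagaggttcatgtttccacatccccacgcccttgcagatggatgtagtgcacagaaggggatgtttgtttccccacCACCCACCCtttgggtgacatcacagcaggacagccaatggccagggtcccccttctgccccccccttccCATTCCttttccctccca
Ncmap, first start, chr4:135398241-135398477, minus strand: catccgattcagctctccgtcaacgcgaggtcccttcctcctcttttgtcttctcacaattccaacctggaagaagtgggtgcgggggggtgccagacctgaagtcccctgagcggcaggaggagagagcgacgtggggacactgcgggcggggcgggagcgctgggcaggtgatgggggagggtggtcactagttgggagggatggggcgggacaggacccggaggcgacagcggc
Fabp7, chr10:57784673-57784880, plus strand: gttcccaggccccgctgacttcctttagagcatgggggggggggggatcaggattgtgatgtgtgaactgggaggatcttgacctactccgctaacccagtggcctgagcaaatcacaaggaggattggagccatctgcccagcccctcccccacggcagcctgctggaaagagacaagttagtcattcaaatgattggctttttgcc
The Pmp22 stretch held GGAATG on the minus strand at positions -173 to -168 from the start. The Prx stretch held GNGTGGGNG at -107 to -99 and GGAATG at -37 to -32, both on the minus strand. No match lay before the other 3 Pmp22 starts, which are not printed, nor before any start of Ncmap, Fabp7 or Ngfr. Among 32851 promoters of all genes, GGAATG occurred in 12.6%, GNGTGGGNG in 12.7%, ACAAAG in 16.5%, CATGTG in 12.3%, AACAAT in 9.4% and CACGTG in 6.0%. A match describes letters and is not evidence of binding.

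Levels of all 8 genes differed between the labels, and not in one direction. Pmp22, Prx and Omg were higher in the BAP1 KO-labelled libraries, and Mbp, Ncmap, Gap43, Fabp7 and Ngfr were lower. Calls were made with edgeR's quasi-likelihood test where the p-value, adjusted over all 17121 tested genes by Benjamini-Hochberg, was under 0.05. A call was common in this comparison: 81.5% of tested genes passed, 39.4% higher and 42.1% lower, and the libraries of the 2 labels did not overlap for 82.7%. The 8 genes all passed the filter on low counts, all 8 were called and none overlapped, and against that background nothing is read from the count itself. Omg passed the filter only through the BAP1 KO-labelled libraries, so its call and its lack of overlap are not independent of the filter. The log2 difference, BAP1 KO minus WT, had a median of -0.79 over the 8 genes and -0.03 over all tested genes, and its absolute value a median of 1.61 against 0.68. These medians describe the genes and are no evidence that they stand apart, since they were proposed with results known.

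**Figure D1:**
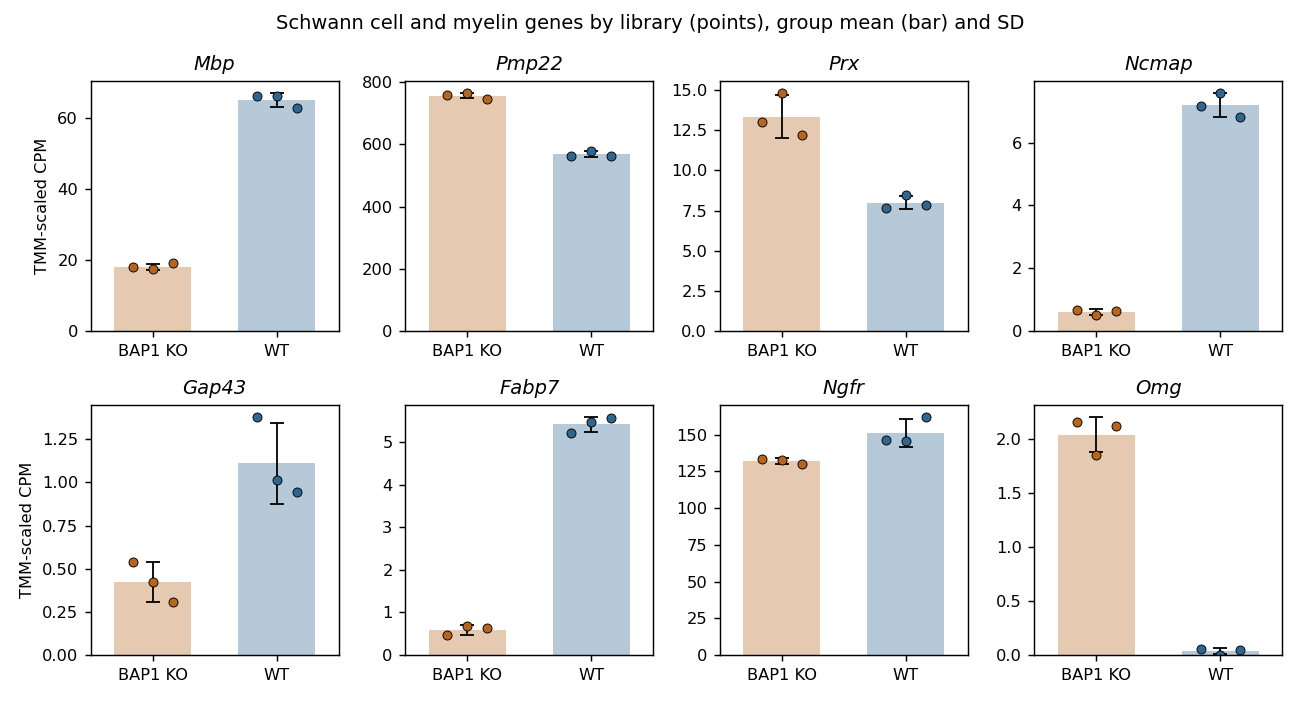
Level of each gene in TMM-scaled CPM (vertical axis, from 0, its own scale in each panel) by genotype label, 3 libraries each; points are libraries, bars group means and whiskers SD. In no panel do the points of the 2 labels overlap, with the narrowest relative gap in Ngfr (132 against 151 CPM on average) and the widest ratio in Omg.

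The structural proteins of myelin went in different directions. Mbp encodes myelin basic protein, which sits on the cytoplasmic face of the myelin membrane and compacts it (gene ID 17196, chromosome 18, 82475091 to 82585637 on GRCm38). It was read at 18.0, 17.4 and 19.1 CPM in the BAP1 KO-labelled libraries and at 66.3, 66.3 and 63.0 CPM in the WT-labelled ones. All 3 libraries labelled BAP1 KO lay far below all 3 labelled WT, and the libraries within a label were close together. The group means were 18.2 ± 0.864 and 65.2 ± 1.93 CPM (SD, n = 3 each), a 3.59-fold lower level with a log2 difference of -1.84 (SE 0.052, edgeR adjusted p = 8.71e-11). The gene ID pools the classic myelin transcripts with the longer Golli transcripts that start upstream and are also made outside myelinating cells, and these counts do not separate them.

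Pmp22 encodes a tetraspan glycoprotein of compact peripheral myelin whose gene dosage underlies inherited neuropathies, and which many other cell types also express (gene ID 18858, chromosome 11, 63128982 to 63159547). It was read at 757, 764 and 746 CPM with the BAP1 KO label and at 563, 579.6 and 563 CPM with the WT label. The groups were separate, and each was tight. The means of 756 ± 8.84 and 569 ± 9.61 CPM (SD, n = 3 each) differed 1.33-fold, a log2 difference of 0.41 (SE 0.032, edgeR adjusted p = 4.56e-07). Pmp22 alone took 81.9% of the reads of the 8 genes with the BAP1 KO label and 70.5% with the WT label, so a sum over the 8 genes, 923 and 807 CPM, mostly reports Pmp22.

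Prx and Ncmap belong to the membrane and scaffold of the myelinating Schwann cell. Prx encodes periaxin, a scaffold protein that links the outer myelin membrane to the dystroglycan complex (gene ID 19153, chromosome 7, 27499305 to 27520041). Its levels were 13.0, 14.8 and 12.2 CPM in the BAP1 KO-labelled libraries and 7.68, 8.46 and 7.86 CPM in the WT-labelled ones. Every library labelled BAP1 KO was above every one labelled WT, with replicate 2 highest. Prx was 1.67-fold higher, with a log2 difference of 0.74 (SE 0.087, edgeR adjusted p = 1.45e-05). Between the BAP1 KO-labelled libraries it varied by 10.1% (coefficient of variation) where counting error alone gives 4.40%, and 5.4% of its exon bases overlap Gm15541. Ncmap encodes a small glycoprotein of the noncompact parts of peripheral myelin (gene ID 230822, chromosome 4, 135369576 to 135398240). It was read at 0.674, 0.516 and 0.641 CPM with the BAP1 KO label and at 7.16, 7.58 and 6.82 CPM with the WT label. The 3 low values rest on 25, 22 and 23 reads, and the groups lay more than an order of magnitude apart. The mean level was 11.8-fold lower with the BAP1 KO label, a log2 difference of -3.56 (SE 0.13, edgeR adjusted p = 7.4e-10), and 6.40% of all tested genes had a lower log2 difference. Prx and Ncmap, both made by myelinating Schwann cells, thus stood on opposite sides of the comparison, as did Pmp22 and Mbp.

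The genes of precursor and immature glia were both lower with the BAP1 KO label. Fabp7 encodes the brain lipid binding protein, a fatty acid carrier of radial glia and Schwann cell precursors (gene ID 12140, chromosome 10, 57784923 to 57788450). Its levels were 0.458, 0.680 and 0.641 CPM in the BAP1 KO-labelled libraries, from 17, 29 and 23 reads, and 5.21, 5.48 and 5.55 CPM in the WT-labelled ones. All libraries labelled BAP1 KO were under 1 CPM and all labelled WT above 5 CPM. The level was 9.12-fold lower, a log2 difference of -3.18 (SE 0.14, edgeR adjusted p = 4.23e-09). Gap43 encodes a growth-cone phosphoprotein of regenerating axons that immature and nonmyelinating Schwann cells also make (gene ID 14432, chromosome 16, 42248552 to 42340651). It was read at 0.539, 0.422 and 0.307 CPM with the BAP1 KO label and at 1.38, 1.01 and 0.946 CPM with the WT label. The labels did not overlap, but each group was wide, with WT replicate 1 above the other 2 WT-labelled libraries. The log2 difference of -1.37 (SE 0.25, 95% interval -1.94 to -0.81, edgeR adjusted p = 0.000472) rests on 49 reads in all with the BAP1 KO label and 125 with the WT label. Of the neuron markers, which share Stmn2 with the Gap43 relatives below, the 12 genes summed to 41.7 to 47.0 CPM with the BAP1 KO label and 81.2 to 85.1 CPM with the WT label. Tubb3 and Stmn2 had the highest levels of these 12, and Rbfox3 and Snap25 had at most 3 reads in every library. Of the 12 neuron markers 6 were tested, and 1 was higher, 4 lower and 1 not called, beside 39.4% higher and 42.1% lower over all tested genes.

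Ngfr and Omg encode partners in signalling at the myelin and axon surface. Ngfr encodes p75, a receptor for all neurotrophins that marks neural crest cells and Schwann cell precursors and that also pairs with the Nogo receptor (gene ID 18053, chromosome 11, 95568818 to 95587698). Its levels were 133, 133 and 129.8 CPM in the BAP1 KO-labelled libraries and 146, 145.5 and 162 CPM in the WT-labelled ones. The BAP1 KO values were tight, and WT replicate 3 stood above the other 2. Ngfr was 1.15-fold lower with the BAP1 KO label, a log2 difference of -0.20 (SE 0.048, 95% interval -0.31 to -0.09, edgeR adjusted p = 0.00305). Without WT replicate 3 the log2 difference was -0.11, and it was still called. Among WT-labelled libraries Ngfr varied by 6.28% where counting error gives 1.32%.

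Omg encodes the oligodendrocyte myelin glycoprotein, a lipid-anchored surface protein that binds the Nogo receptor (gene ID 18377, chromosome 11, 79500982 to 79504082, minus strand). It was read 80, 79 and 76 times in the BAP1 KO-labelled libraries and 2, 0 and 2 times in the WT-labelled ones. These are 2.16, 1.85 and 2.12 CPM with the BAP1 KO label, against 0.0575, 0 and 0.0485 CPM. Omg was thus a low transcript in the first group and at the edge of detection in the second. From the summed reads of 235 and 4 the ratio was 57.7, with a 95% exact interval of 22.3 to 214 that covers counting error only. The fitted log2 difference was 5.73 (SE 0.36, edgeR adjusted p = 6.84e-08), which depends on the prior count, and 0.08% of tested genes had a larger one. Because only the libraries labelled BAP1 KO took Omg past the filter, this p-value and this rank are description and no support.

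**Figure D2:**
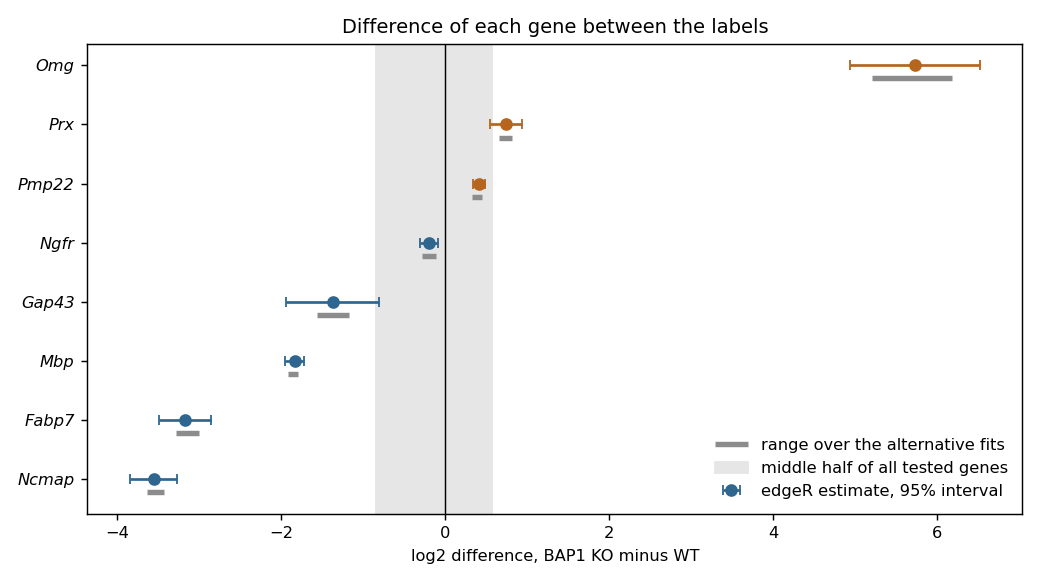
Log2 difference of each gene, BAP1 KO minus WT (horizontal axis), with the 95% interval of the edgeR fit as whiskers, the range over the alternative fits as a grey bar and the interquartile range of all tested genes, -0.85 to 0.57, shaded. Pmp22 and Ngfr lie within the shaded range, Prx lies just above it, and Omg, Ncmap and Fabp7 lie farthest out.

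The place of Omg in the genome bears on its count. In the GENCODE annotation Omg lies inside intron 39 of Nf1, an intron of 59719 bases in a gene of 60 merged exons, on the opposite strand, together with Evi2a and Evi2b. The library kit did not keep strand, so reads from unspliced Nf1 RNA that fall on Omg exons cannot be told from Omg reads. Nf1, which encodes neurofibromin, a RAS inhibitor, was itself higher with the BAP1 KO label, at 253 ± 2.57 against 83.3 ± 4.94 CPM (SD, n = 3 each), a log2 difference of 1.60 (SE 0.047, edgeR adjusted p = 1.26e-10). Evi2a, in the same intron, stood at 1.09 ± 0.160 and 0.408 ± 0.156 CPM (log2 1.41, SE 0.27, edgeR adjusted p = 0.000583), with 19.2% of its exon bases shared with Evi2. Evi2b stood at 0.567 ± 0.0916 and 0.206 ± 0.105 CPM (log2 1.46, SE 0.34, edgeR adjusted p = 0.00249), although 98.5% of its exon bases are shared with Evi2, a further gene of the intron, at 1.35. Like Omg, Evi2b passed the filter only through the BAP1 KO-labelled libraries, so its p-value is description and no support. The host and the 3 nested neighbours thus differed by 1.35 to 1.60 on the log2 scale and Omg by 5.73. The share of Omg reads that came from Nf1 was not tested.

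**Figure D3:**
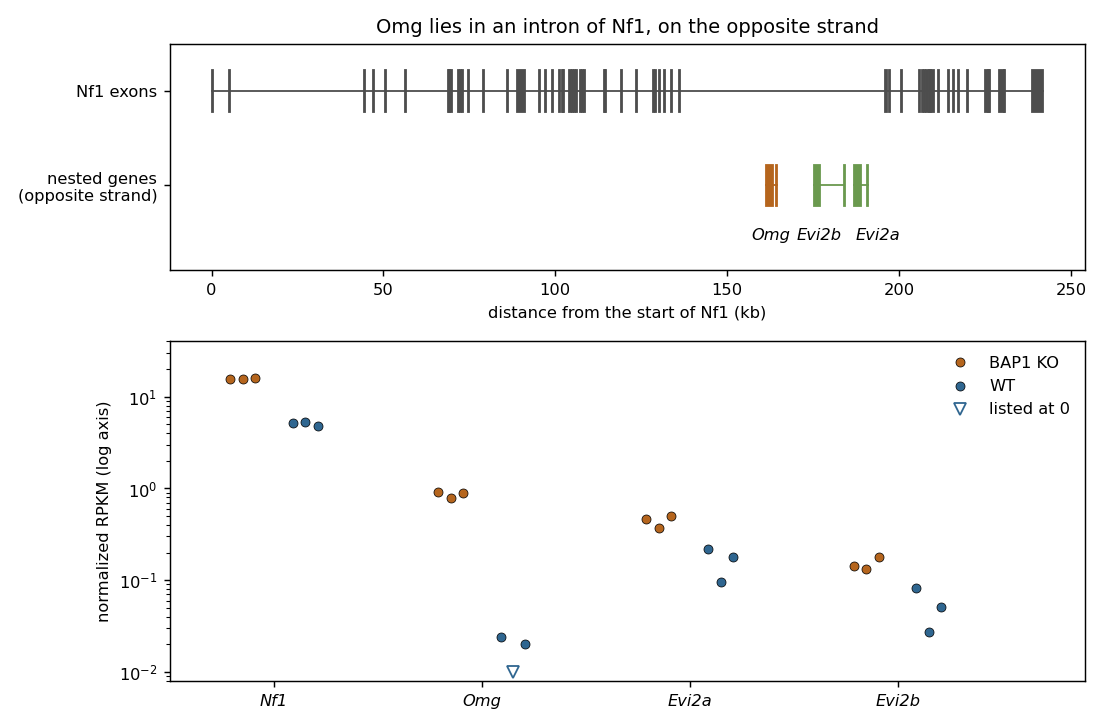
Upper panel, exons of Nf1 and of the nested genes Omg, Evi2a and Evi2b on the opposite strand, by distance from the start of Nf1 in kb. Lower panel, deposited normalized RPKM of the 4 genes in every library on a log axis, with the 1 WT-labelled library in which Omg is listed at 0 drawn as an open triangle. Nf1, Evi2a and Evi2b are read under both labels, and Omg is near 0 with the WT label.

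Levels can be compared between genes only per length, for which the deposited normalized RPKM was used (reads scaled to gene length and library depth, adjusted by the authors' size factor). Pmp22 led under both labels, at 303.0 ± 3.84 with the BAP1 KO label and 223 ± 0.916 with the WT label (SD, n = 3 each). Ngfr followed at 36.5 ± 0.613 and 41.0 ± 3.08. The other 6 genes were below 9 in this unit in every WT-labelled library except Mbp replicate 1, at 9.07, and below 3 in every library labelled BAP1 KO. Under the WT label the order after Ngfr was Mbp (8.87 ± 0.194), Fabp7 (6.56 ± 0.241), Ncmap (3.02 ± 0.116), Prx (1.36 ± 0.0516), Gap43 (0.784 ± 0.168) and Omg (0.0148 ± 0.0129), and no neighbours in that order overlapped. Under the BAP1 KO label the order after Ngfr was Mbp (2.52 ± 0.118), Prx (2.33 ± 0.233), Omg (0.865 ± 0.0717), Fabp7 (0.734 ± 0.145), Gap43 (0.304 ± 0.0846) and Ncmap (0.262 ± 0.0364). There the libraries of Mbp and Prx, of Omg and Fabp7, and of Gap43 and Ncmap overlapped, so their order within each pair is not set by these data.

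**Figure D4:**
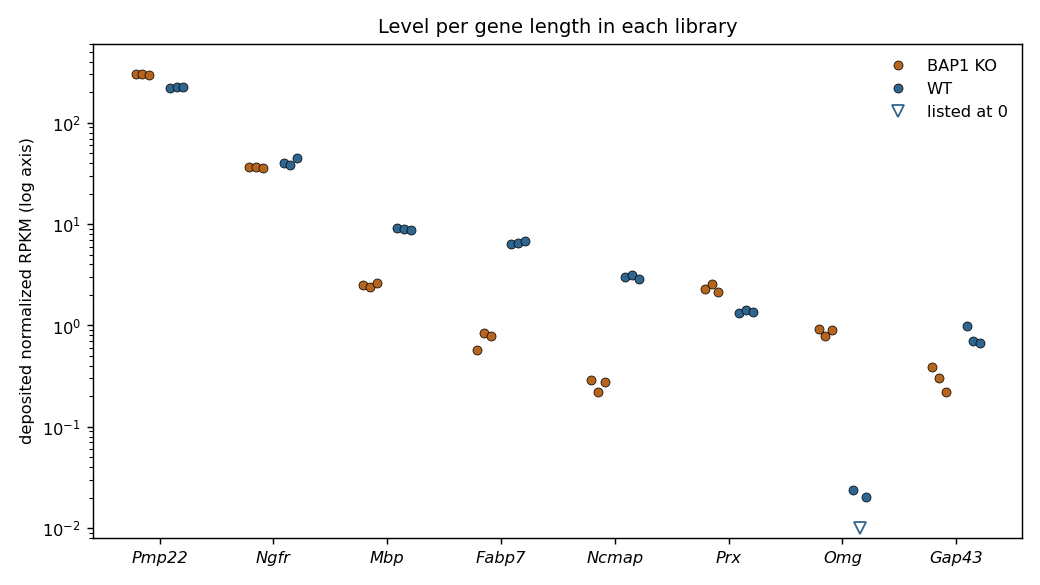
Deposited normalized RPKM (vertical log axis) of the 8 genes in each library, BAP1 KO in brown and WT in blue, ordered by the higher group mean. Pmp22 and Ngfr stand above 30 in every library, and the other genes span the range from Mbp at 9.07 down to Omg, listed at 0 in 1 WT-labelled library.

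The rest of the myelin gene program was mixed as well. The list holds 26 other genes of myelin proteins and lipid enzymes. Counted among the 26 are Mpzl1 and Mpzl2, which as described below are not myelin proteins. Of the 26 genes 18 were tested, 7 were higher, 10 lower and 1 not called. Their median log2 difference was -0.34 against -0.03 over all tested genes. With at least 5 CPM required in 3 libraries 4 were higher. Over all tested genes 39.4% were higher and 42.1% lower. The myelin genes Mag, Mog, Mobp, Gjb1, Cldn19, Fa2h, Opalin and Ermn had too few reads to test. The largest differences among genes of at least 2 CPM were in Mpzl2, an epithelial adhesion protein (-5.45, with 30.7% of its exon bases shared with Gm48840), Pmp2, the myelin fatty acid carrier (-2.60, with 86.9% shared with Gm37389), Mal, a raft proteolipid of myelin and epithelia (-2.56), and Mpzl1, a surface receptor (2.47). The keratinocyte marker sum moved in the direction of Mpzl2 and Mal, from 6941 ± 124 CPM with the WT label to 324 ± 9.01 CPM. Its part in these values was not tested. Over the 15 Schwann cell and oligodendrocyte markers the sum was 1911 to 1986 CPM with the BAP1 KO label and 953 to 1066 CPM with the WT label, and Mog, Mobp, Olig2 and Gjb1 had at most 3 reads in every library. This sum, too, follows its leading genes and does not describe the list. Of the 15 markers 9 were tested, and 5 were higher, 3 lower (Mal among them) and 1 not called, with a median of 0.44.

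Transcription factors of the Schwann cell lineage went both ways, as did the whole table (39.4% of tested genes higher, 42.1% lower). Of 22 listed, 21 were tested, 12 were higher, 7 lower and 2 not called, with a median log2 difference of 0.47. The number lower was 4 when BAP1 KO replicate 1, BAP1 KO replicate 2 or WT replicate 2 was left out, and with no count filter. Sox10, which drives both the Schwann cell and the melanocyte program, stood at 960.4 ± 29.3 CPM with the BAP1 KO label and 198 ± 7.74 CPM with the WT label (log2 2.28, SE 0.042, edgeR adjusted p = 3.04e-12). Id2, an inhibitor of bHLH factors, was higher at 3.84, Sox6 at 3.06 and Pax3, a crest and melanocyte factor, at 3.02. Nfatc4, a calcineurin-regulated partner of Sox10 in Schwann cells, was lower at -4.20. Egr2 (Krox20), the master regulator of myelination, was near the limit of counting, at 0.430 ± 0.118 and 0.867 ± 0.0716 CPM (log2 -1.03, SE 0.24, edgeR adjusted p = 0.0022). All 10 melanocyte markers were higher in the same libraries, with a median of 3.06, and their part in these values was not tested.

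Receptors and axon signals that guide Schwann cells divided nearly evenly, with 11 higher and 10 lower among 21 tested of 22 and a median of 0.43. Jag1, a Notch ligand, was lower at -4.05, Adgrg6 (Gpr126), the adhesion receptor needed to start myelination, at -3.13, and Nrg1, the axonal growth factor that sets myelin thickness, at -3.08. Lgi4, a secreted Schwann cell protein that signals through Adam22, was higher at 3.03, with 44.9% of its exon bases shared with Fxyd3. The genes of Schwann cell precursors and immature glia, beyond Fabp7 and Gap43, counted 16 higher and 7 lower among 23 tested of 24, with a median of 0.75, beside 39.4% higher and 42.1% lower over all tested genes. The difference from all genes was not tested. S100b, a calcium-binding protein of Schwann cells and melanocytes, was higher at 5.56, the potassium channel Kcna1 at 4.76 and the pump regulator Fxyd1 at 3.89, and Moxd1, a monooxygenase family member, was lower at -5.19. Fabp7 and Gap43 stood at -3.18 and -1.37.

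**Figure D5:**
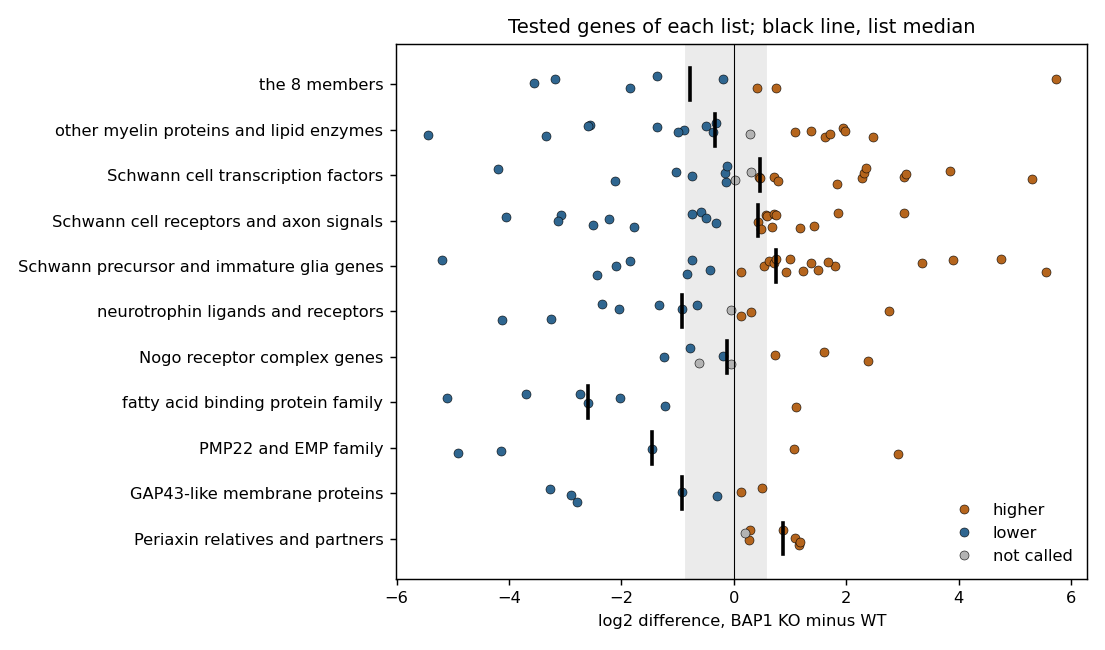
Log2 difference, BAP1 KO minus WT (horizontal axis), of every tested gene (points) in the 8 genes and the 10 lists of related genes, coloured by call; black lines are medians and shading is the interquartile range of all tested genes. Medians run from -2.60 for the fatty acid binding protein family to 0.87 for the relatives and partners of periaxin, and nearly every list has points on both sides of 0.

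Families of the individual genes were set beside them. Around Ngfr, 11 of 16 neurotrophin genes were tested, 3 were higher, 7 lower and 1 not called, with a median of -0.92. A single gene was higher when BAP1 KO replicate 1 or BAP1 KO replicate 3 was left out, with library totals in place of TMM factors, and in DESeq2. In the whole table of tested genes, the share called higher was 39.4% and the share called lower 42.1%. The whole table had a median log2 difference of -0.03. Whether the neurotrophin list departs from these values was not tested. Of the ligands, Ntf5 was lower at -4.12 and Bdnf at -2.35, with 14.4% of the Bdnf exon bases shared with Gm45346. Ntf3 and the receptor genes Ntrk2 and Ntrk3 had too few reads to test, with mean levels of 0.101 to 0.310 CPM over both groups. Among the sortilins, which bind proneurotrophins together with p75, Sort1 was higher at 2.75 (1434 ± 23.4 against 213 ± 5.68 CPM) and Sorcs2 was lower at -3.25. The genes named are those of the largest differences in the list, and Ngfr itself stood at -0.20.

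Around Omg, 8 of 9 genes of the Nogo receptor complex were tested, with 3 higher, 3 lower and 2 not called (median -0.13). Shares over all tested genes were 39.4% higher and 42.1% lower. Rtn4r, the Nogo receptor that Omg binds, stood at 7.48 ± 0.585 CPM with the BAP1 KO label and 1.42 ± 0.209 CPM with the WT label (log2 2.39, SE 0.12, edgeR adjusted p = 1.38e-08). Its signalling partner Lingo1 was lower, at 0.872 ± 0.0558 against 2.07 ± 0.126 CPM (-1.25), Kidins220, a scaffold that binds neurotrophin receptors, was higher at 0.73, and Rtn4, which encodes Nogo itself, was lower at -0.20 with overlap between the groups and 18.4% of its exon bases shared with Eml6. Omg and Rtn4r were therefore both higher, and Lingo1 and Ngfr both lower, with the BAP1 KO label.

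Fabp7's relatives are the intracellular lipid and retinoid carriers. Of 12 listed, 7 were tested, 1 was higher and 6 lower, where 42.1% of all tested genes were lower, and the median was -2.60 against -0.03. The retinoic acid carriers Crabp2 and Crabp1 were lower at -3.69 and -2.73, and Pmp2 at -2.60 with the overlap given above. Fibroblast markers, at a median of -2.80, and keratinocyte markers, at -4.18, were lower in the same libraries, and their part in these values was not tested. In the family of Pmp22, 5 of 6 genes were tested, 2 higher and 3 lower (median -1.45), beside 39.4% and 42.1% of all tested genes. The p53 target Perp was at -4.90, and the epithelial membrane protein genes Emp1 at -4.14, Emp2 at -1.45 and Emp3 at 2.91. Pmp22, at 0.41, had the smallest absolute difference of this family.

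Among membrane proteins that, like Gap43, bind calmodulin or the inner leaflet of the membrane, 7 of 9 were tested, 2 higher and 5 lower (median -0.93). Without BAP1 KO replicate 3, and with library totals, 1 was higher. Over all tested genes 39.4% were higher and 42.1% lower. Stmn2, a neuronal tubulin regulator, was lower at -3.28, and the membrane-bound actin regulators Basp1, Marcksl1 and Marcks were lower at -2.89, -2.79 and -0.93. For periaxin, 6 of 7 relatives and partners were higher and Sgcd was not called, with a median of 0.87 and no log2 difference under the 0.20 of Sgcd. Of all tested genes 81.5% were called, so a call in most of 7 genes is not a result about them. The share called higher over all tested genes was 39.4%, and the difference of this list from it was not tested. Dag1, which encodes dystroglycan, was higher at 1.18, the dystrophin relative Utrn at 0.87, and Ahnak2 and Ahnak, scaffold relatives of periaxin, at 1.16 and 0.29. Drp2, the dystrophin-related protein that periaxin binds, stood at 1.12 ± 0.255 and 0.528 ± 0.0964 CPM (log2 1.08, SE 0.24, edgeR adjusted p = 0.00164). Prx itself stood at 0.74.

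Finally, the genes closest to each of the 8 in their pattern over the 6 libraries were found by the Euclidean distance of log2(CPM + 0.125), each gene centred on its own mean. Nearest to Mbp were Apbb2 (distance 0.0736) and Lrrk2 (0.0776), to Ncmap Shank2 (0.136) and Wnt10b (0.162), and to Fabp7 Lrrn1 (0.0827) and Cnn1 (0.168). Nearest to Gap43 were Kcnd3 (0.210) and Asxl3 (0.310), and to Omg Scrg1 (0.319) and the melanosome gene Mlana (0.377). The fitted log2 differences of Scrg1 and Mlana were 3.63 and 3.78, well under the 5.73 of Omg. The 0.125 added to each CPM exceeds the WT-labelled mean of Omg, 0.035 CPM, and so shrinks the difference of Omg in this distance. For the genes with small differences the nearest were Ptk2 (0.0452) and Anln (0.0474) for Pmp22, Pgap3 (0.0891) and Arsg (0.108) for Prx, and Pef1 (0.0250) and Ccm2 (0.0272) for Ngfr. How crowded each pattern was differed widely. Within a distance of 0.5 lay 4011 genes for Pmp22, 3663 for Ngfr and 2507 for Prx, 537 for Mbp, 239 for Ncmap and 216 for Fabp7, and 56 for Gap43 and 18 for Omg. Gap43 and Omg have the fewest reads of the 8 genes.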

How the data were processed

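Per the labels' protocols, polyA RNA of primary mouse melanocytes went into TruSeq v2 libraries without strand information, sequenced as single-end 50-base reads on a HiSeq4000. GSNAP and GRCm38 are credited to the submitters' processing notes. What counted the reads, and with which annotation, is not given in the sources used here. The authors deposited, per the file headers, for each gene ID a count of uniquely aligned reads and a normalized RPKM. Of 36528 IDs, 31049 (85.0%) had a symbol in the RefSeq table of GRCm38.p6, and 1.09% of reads were in IDs without one. Counts were filtered with filterByExpr (minimum count 10, minimum total 15), scaled by TMM and tested with edgeR 4.0.16 (glmQLFit, glmQLFTest) in R 4.3.3, with all 6 libraries and no covariate, and p-values were adjusted by Benjamini-Hochberg over all 17121 tested genes. The common biological coefficient of variation was 0.0536. The fit was tested on simulated data. The RPKM served only to compare levels between genes. Exon overlap came from GENCODE, on either strand, and is given for a named gene of the lists where it exceeds 10% (for the 8 genes, wherever it is above 0). It was not computed for genes outside the lists. The 8 genes, the lists and the alternatives were chosen with earlier results of these data known. The text names the 8 genes, from each list up to 4 called genes of at least 2 CPM by absolute log2 difference, direct partners of the 8 genes, the 2 most abundant markers of each cell type, and the 2 genes closest in pattern to each. Alternatives were DESeq2 1.42.0, limma-voom (limma 3.58.1), DESeq2 size factors, library totals, no count filter, at least 5 CPM in 3 libraries, and leaving out each library. Some genes that this rule names are not reported here. Scaling by the authors' library factors was added after the data were seen.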

Additional observations from a re-analysis of the deposited data

How the results depend on the processing

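Over 13 alternative fits, all 102 recomputed differences of the 8 genes kept their direction and their call. Gap43 and Omg could not be tested with at least 5 CPM in 3 libraries. The log2 difference of Ngfr ran from -0.28 to -0.11 and that of Omg from 5.20 to 6.18. Of 325 counts, 310 stayed within 1.5 times. With at least 5 CPM in 3 libraries, 4 other myelin genes, 1 neurotrophin gene and 1 Gap43-like gene were called higher. At that level 0 fatty acid binding protein genes were called higher and 1 Nogo receptor complex gene was called lower. Fabp3, the carrier otherwise called higher, lay below that level, and 19.6% of its exon bases are shared with Zcchc17. Library totals left 1 neurotrophin and 1 Gap43-like gene higher, and DESeq2 left 1 neurotrophin gene higher. With no count filter, 4 Schwann cell transcription factors were called lower. Leaving out each library in turn, 4 to 6 of these factors were lower, 1 to 3 neurotrophin genes were higher and 1 to 2 Gap43-like genes were higher. Fewer genes are tested under the stricter filter, and for the other settings the cause was not tested. Counts divided by library totals gave ratios, BAP1 KO over WT, of 0.267 for Mbp and 1.27 for Pmp22, against 0.284 and 1.36 from the deposited RPKM. Over all genes, 10144 to 15469 were called. No paired analysis was possible because the labels carry no replicate numbers. The replicate numbers in the text were assigned here in the order of the samples within each label and imply no pairing. Counting limits Omg, with 4 reads under the WT label, and Gap43, with 11 to 48 reads a library. Counts per transcript or exon were not used here.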

Other observations

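Low transcripts of the myelin list, chosen after their values were seen, also went both ways. Cldn11, the tight junction protein of central myelin, stood at 0.154 ± 0.0293 CPM in the BAP1 KO-labelled libraries and 1.60 ± 0.172 CPM in the WT-labelled ones (SD, n = 3 each), a log2 difference of -3.34 (SE 0.24, edgeR adjusted p = 2.12e-07). Gal3st1, which makes the myelin lipid sulfatide, was lower at 1.41 ± 0.387 against 3.58 ± 0.337 CPM (log2 -1.36), and Ugt8a, the enzyme one step earlier that makes its precursor galactosylceramide, was higher at 0.549 ± 0.165 against 0.215 ± 0.0934 CPM (log2 1.37, SE 0.36, edgeR adjusted p = 0.00506). At the node of Ranvier, gliomedin (Gldn) was higher at 1.46 ± 0.250 against 0.373 ± 0.156 CPM (log2 1.94), and neurofascin (Nfasc), which gliomedin binds, was lower at 0.964 ± 0.135 against 1.81 ± 0.374 CPM (log2 -0.89). Cldn11 passed the filter on low counts only through the WT-labelled libraries, and Ugt8a and Gldn only through the BAP1 KO-labelled ones. The calls of these genes are therefore not independent of the filter, and their values are description and no support.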
